A study of Homo sapiens with 6 samples.

Results

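The genes described here are 51 kinetochore, centromere and mitotic checkpoint genes, taken by symbol from a count table of 20020 genes, in a human clear cell renal carcinoma line, 786-O. Polyadenylated RNA was sequenced from 3 shIGF2BP2 samples and 3 puro samples, the control. The first carry a short hairpin RNA directed at IGF2BP2, which encodes a reader protein of N6-methyladenosine in RNA. The labels do not say what puro stands for, and neither the hairpin sequences, the vector, the clonal state of the cells nor the time of harvest is given. The table holds 9 libraries for these 6 samples: 3 puro libraries and 6 shIGF2BP2 libraries whose names carry a first number, 2 or 3, and a last number from 1 to 3. The last number was read as the sample. No label explains the first number, and the shIGF2BP2 libraries are called set 3 and set 2 by it; the same 3 puro libraries served both. Separate cultures are not stated, and p-values reflect no more than the spread among these libraries, which may be technical.

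The kinetochore is the protein assembly that couples each chromosome to spindle microtubules. Its inner layer, the constitutive centromere-associated network, sits on nucleosomes that contain CENP-A, a histone H3 variant. Its outer layer, built of the KNL1, MIS12 and NDC80 complexes, binds microtubules. Kinetochores that lack microtubules recruit the spindle checkpoint, which holds the anaphase-promoting complex inactive by keeping its activator CDC20 in an inhibitory complex, while the chromosomal passenger complex with Aurora B destabilises faulty attachments. Most of these transcripts accumulate in G2 and mitosis. In bulk RNA a smaller share of mitotic cells and less RNA per cell cannot be told apart.

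The 9 libraries held 33821216 to 47470019 counts, of which the 51 genes took 0.444 to 0.547%. IGF2BP2 itself had 34.5, 31.1 and 35.4 CPM (counts scaled by the TMM library size) in set 3, 25.2, 23.5 and 23.1 CPM in set 2 and 74.8, 76.5 and 79.0 CPM in puro, a log2 fold change of -1.19 in set 3 and -1.68 in set 2 (edgeR adjusted p = 2.24e-13 and 2.65e-16). Of the renal carcinoma markers, PAX8, VIM, CDH2 and EPAS1 were present, while CA9 (0.302 to 0.777 CPM), LRP2 and CDH16 were at or near 0; the list of 10, most of it VIM, summed to 6140 to 6540 CPM in set 3, 5950 to 6080 CPM in set 2 and 5020 to 5320 CPM in puro. Of its 9 tested genes, 4 rose and 4 fell in set 3, and 2 rose and 6 fell in set 2. VIM (log2 fold changes 0.42 in set 3 and 0.36 in set 2) and PAX2 (0.82 and 0.40) rose in both. CA12 (-1.59 and -0.92), PAX8 (-1.17 and -0.20), EPAS1 (-0.56 and -0.37) and the low CDH16 (-1.64 and -1.59) fell in both. CDH2 (0.42 and -0.18) and NNMT (0.29 and -0.86) rose in set 3 and fell in set 2. The part of these changes in the results was not tested. Endothelial, hepatocyte and erythroid markers summed to at most 2.24 CPM in any library. The leukocyte list, nearly all of it CD68, summed to 24.2 to 27.8 CPM in set 3, 43.6 to 45.9 CPM in set 2 and 24.6 to 25.9 CPM in puro, and the fibroblast or mural list, mostly RGS5, to 7.01 to 8.95, 6.48 to 8.13 and 5.91 to 7.66 CPM. Set 3 replicate 1 was the highest set 3 library in 30 of 50 genes of the kinetochore list, against 39.2% of all tested genes, and set 2 replicate 3 was the highest set 2 library in 28 of 50, against 34.3%; the part of these libraries in the results was not tested beyond leaving each one out.

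Kinetochore genes moved in both directions, most of them by little. Of the 51, 50 had enough counts to be tested among 13346 genes by edgeR's quasi-likelihood test with Benjamini-Hochberg adjustment, and a gene is said to have risen or fallen where the adjusted p was below 0.05. In set 3 against puro 17 rose and 16 fell, which is 66% of those tested, where 55.6% of all genes were called (28.0% higher and 27.6% lower). In set 2 against puro 19 rose and 14 fell, also 66%, where 59.9% of all genes were called (30.0% higher and 29.9% lower). The balance of directions in set 2 depended on the scaling: on log2(FPKM + 1) with limma 26 rose and 11 fell, and over all genes 4882 rose and 3138 fell. The median log2 fold change was 0.017 in set 3 and 0.08 in set 2, against 0.0040 and 0.0060 over all tested genes, and the median size of change was 0.30 and 0.32, against 0.32 and 0.36. Only 3 of the genes changed by 2-fold or more in each set, 6% of those tested, against 9.34% of all genes in set 3 and 11.1% in set 2.

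Across the sets, 12 genes rose in both and 8 fell in both. Over all tested genes, 15.0% rose in both sets and 14.0% fell in both. Those that rose were CENPC, CENPI, CENPK, CENPN, CENPO, CENPW, KNL1, CENPE, TTK, CDC20, AURKA and CCNB1. Those that fell were OIP5, ZWINT, BUB1B, MAD2L1, AURKB, BIRC5, CCNB2 and CDK1. Another 5 were called in opposite directions: CENPQ and PMF1 were higher in set 3 and lower in set 2, and NDC80, SPC24 and CDCA8 were lower in set 3 and higher in set 2, where 9.02% of all genes were called in opposite directions. Called in neither set were 9 genes, CENPP, CENPT, MIS18A, SPC25, MIS12, ZW10, KNTC1, BUB3 and PLK1, against 22.5% of all genes. Set 3 compared directly with set 2 gave 13 higher and 15 lower, 56% of the tested genes (differences between the sets are given as set 3 minus set 2), where 60.7% of all genes were called (29.8% higher and 30.8% lower). On log2(FPKM + 1) with limma this split was 7 higher and 22 lower, and over all genes 2917 higher and 5153 lower.

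**Figure D1:**
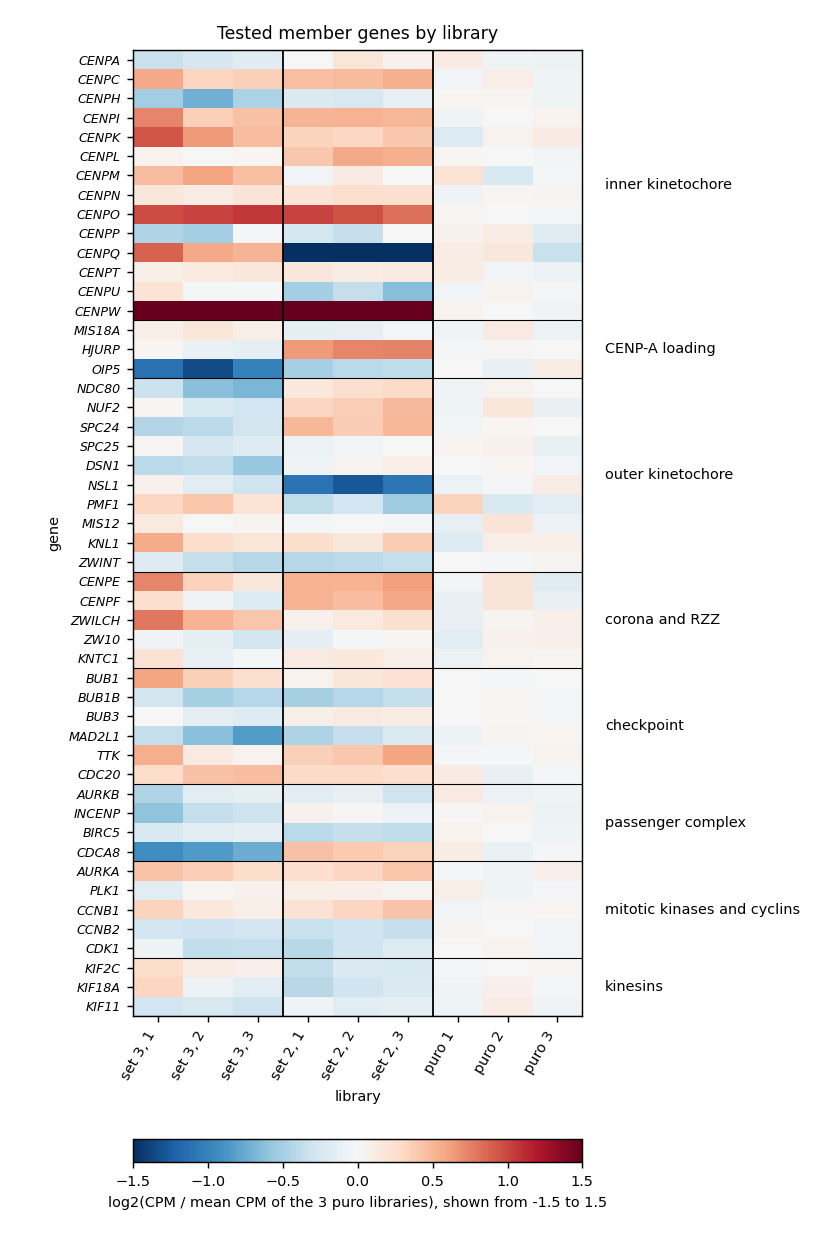
Heat map of the 50 tested genes (vertical axis, grouped by role) in the 9 libraries (horizontal axis), coloured by log2 of CPM over the mean of the 3 puro libraries and cut off at -1.5 and 1.5. CENPW and CENPO are red in both sets, CENPQ is red in set 3 and dark blue in set 2, and the checkpoint and cyclin genes show pale shades of both colours.

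Many promoters of these genes share a short element, and its letters are shown because genes that hold it both rose and fell. The cell cycle genes homology region, bound by the MuvB complex that controls G2/M genes, was searched as TTTGAA or TTCGAA on both strands in RefSeq promoter windows (GRCh38.p14, 250 bases before to 50 after the start). Of 41 genes of the list with a window, 24 (58.5%) held either word, against 11.3% of 10821 tested genes and 16.6% of all 27305 windows. Of the 24 with a word, 6 rose and 11 fell in set 3 (median log2 fold change -0.15), and 10 rose and 7 fell in set 2 (median 0.08). Of the 16 tested genes with a window but no word, 7 rose and 3 fell in set 3 (median 0.15), and 5 rose and 6 fell in set 2 (median 0.0055). Of all tested genes, 28.0% rose and 27.6% fell in set 3, and 30.0% rose and 29.9% fell in set 2. Calls were not counted over all tested genes that hold a word, and a link of the word to a direction was not tested. A match is a description of letters and not a site. In the following stretches of 30 bases, read on the gene's strand, capitals mark the word.
CDCA8 (chr1:37692481-37692510, plus strand): gtgactgtggagTTTGAAttgggtggcggt
INCENP (chr11:62123989-62124018, plus strand): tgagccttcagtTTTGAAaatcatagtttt
CENPA (chr2:26786026-26786055, plus strand): cggagcgagcgaTTTGAAcgcgagcggcgc
BUB1B (chr15:40161034-40161063, plus strand): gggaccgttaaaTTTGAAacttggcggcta
CCNB2 (chr15:59105105-59105134, plus strand): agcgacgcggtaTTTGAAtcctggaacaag
PLK1 (chr16:23678848-23678877, plus strand): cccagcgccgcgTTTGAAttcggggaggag
CDC20 (chr1:43358904-43358933, plus strand): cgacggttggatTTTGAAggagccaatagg
CENPN (chr16:81007205-81007234, plus strand): gcaattggtggcTTTGAAggcgcggcgagc
The word began 29 to 10 bases before the annotated start in the first 6, 65 bases before it in CDC20 and at base 4 after it in CENPN. All 8 genes carry TTTGAA. In set 3 CDCA8, INCENP, CENPA, BUB1B and CCNB2 fell and PLK1 was not called. CDC20 and CENPN rose in both sets, and CDCA8 rose in set 2. CENPW, CENPO, CENPC and BUB1 are the other holders of a word that rose in set 3.

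CENPW showed the largest change against puro among the 50 tested genes. It encodes a histone-fold protein that pairs with CENP-T to form a DNA-binding arm of the inner kinetochore (chr6:126340174-126348875, plus strand, GRCh38). CENPW had 58.4, 53.0 and 53.0 CPM in set 3, 42.9, 46.7 and 48.6 CPM in set 2 and 9.73, 9.41 and 9.11 CPM in puro. All 6 shIGF2BP2 libraries lay above 4 times any puro library, with log2 fold changes against puro of 2.54 (SE 0.086) in set 3 and 2.29 (SE 0.085) in set 2 (edgeR adjusted p = 7.68e-19 and 5.1e-18). Set 3 was also higher than set 2, by 0.25 (edgeR adjusted p = 0.00576), but this difference was not called on log2(FPKM + 1) with limma (adjusted p = 0.0903). Its partner CENPT, an anchor for NDC80, had 42.9, 44.8 and 45.4 CPM in set 3, 45.3, 43.5 and 44.2 CPM in set 2 and 43.6, 39.2 and 38.0 CPM in puro; the libraries overlapped and neither set was called. Deposited FPKM divides counts by gene length and, unlike the CPM, does not use the TMM factors. On that scale CENPW stood at 61.9 FPKM in set 3 and 56.8 FPKM in set 2 against 10.8 FPKM in puro. CENPT stood at 16.4 and 17.8 FPKM against 15.1 FPKM in puro.

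CENPO, a subunit of the CENP-O, P, Q, R and U complex that docks PLK1 at kinetochores, came next among the rises. CENPO had 59.5, 61.0 and 63.3 CPM in set 3, 60.9, 58.4 and 53.6 CPM in set 2 and 30.7, 30.0 and 29.9 CPM in puro. The shIGF2BP2 libraries were all above the puro libraries, with log2 fold changes against puro of 1.02 (SE 0.073) in set 3 and 0.93 (SE 0.073) in set 2, and the sets overlapped (edgeR adjusted p = 3.7e-12 and 1.84e-11). The exons of CENPO (chr2:24793136-24822376, plus strand) overlap those of ADCY3 on the opposite strand by 1488 bases, and since the strand setting of the counting is not given here, reads of the pair cannot be told apart. CENPQ, of the same complex (chr6:49463378-49493107, plus strand), had 32.9, 26.4 and 25.5 CPM in set 3, 5.37, 5.86 and 4.83 CPM in set 2 and 19.3, 20.2 and 14.2 CPM in puro. Its set 3 libraries lay above the puro libraries and its set 2 libraries far under them, with log2 fold changes of 0.66 (SE 0.12) and -1.74 (SE 0.13) and a difference of 2.40 between the sets (edgeR adjusted p = 3.08e-05, 8.82e-12 and 9.82e-15). CENPU fell by 0.50 in set 2 on the log2 scale, was not called in set 3 at 0.052, and differed between the sets by 0.55 (edgeR adjusted p = 1.5e-05, 0.624 and 3.17e-06), with 41.0 ± 3.94 CPM in set 3, 28.0 ± 2.73 CPM in set 2 and 39.5 ± 1.33 CPM in puro (mean ± SD, n = 3 libraries each). CENPP was the lowest tested gene per length, at 0.736 FPKM in puro, and was not called. So 4 subunits of this complex gave 4 different patterns of calls across the sets.

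Short words in the 3' UTR are described here for CENPW, CENPO, CENPQ and other genes of the list. An earlier look at these same libraries had picked 3 pairs of overlapping words by the fold changes of all genes. These genes were among those used for the picking, so the shares that follow are a description and no test. The words were read on the transcript strand in the longest 3' UTR of the basic protein-coding GENCODE 29 transcripts, where these genes had a median UTR of 799.5 bases and all tested genes 1319 bases. ACACATC or CACATCA, the words of genes that were higher in both sets, were in 6 of 50 genes (12.0%), against 16.8% of 13154 tested genes. CENPW, CENPO, CENPI, CENPN and AURKA, which hold one, were all higher in both sets, CENPP was not called, and no gene that fell in either set held one. That is 5 of the 17 genes that rose in set 3 (29.4%, against 23.1% of all genes that rose) and 5 of the 19 that rose in set 2 (26.3%, against 24.4%). The shares were near those over all genes. Of all genes that fell, 14.2% in set 3 and 13.3% in set 2 held one. GTCATCA or TCATCAA, the words of genes lower in set 2, were in 5 of the 14 genes that fell in set 2 (35.7%, against 23.2% of all genes that fell): CENPQ, CENPU, MAD2L1, CCNB2 and KIF18A. GGGAAAT or GGAAATA, the words of genes lower in set 3, were in 3 of the 16 that fell in set 3 (18.8%, against 38.3%), among them OIP5. The following stretches of 30 bases are reference sequence (GRCh38), read on the transcript strand, with the word in capitals.
CENPW (chr6:126348555-126348584, plus strand): gacattttttACACATCAgttaatatggga
CENPO (chr2:24820942-24820971, plus strand): tcctaatgtaACACATCAttgtcctcattc
CENPI (chrX:101163220-101163249, plus strand): atgtaaaaagACACATCtgttttgtggtag
CENPN (chr16:81029293-81029322, plus strand): taaaggtgtcaaaaaactggCACATCAgtt
AURKA (chr20:56369969-56369998, minus strand): cagaaagctcCACATCAataaacatgacac
CENPQ (chr6:49492864-49492893, plus strand): attttctactGTCATCAAaacatattccca
CENPU (chr4:184694633-184694662, minus strand): aaaataagcaTCATCAAtgccattatccca
OIP5 (chr15:41309632-41309661, minus strand): aagaatggagGGGAAATgcagtttctattt
CENPW and CENPO carry both overlapping words as the 8 letters ACACATCA, and CENPO holds a word of this pair in 4 places. Words of the second pair also lie in KNL1 and AURKA, which were higher in set 2. CENPO also holds GGAAATA, a word of genes lower in set 3, and was higher in set 3. So a word did not go with 1 direction in every gene that holds it. The stretches shown are all from genes that moved in the direction by which their words were picked.

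Of 14 tested inner kinetochore genes, 8 rose and 2 fell in set 3, where 28.0% of all genes rose and 27.6% fell, and 7 rose and 2 fell in set 2, where 30.0% rose and 29.9% fell. The roles were assigned with earlier results known, and these counts carry no test of the group. CENPC, the protein that bridges CENP-A nucleosomes to the MIS12 complex, had 28.2, 23.8 and 24.5 CPM in set 3, 26.1, 26.5 and 27.7 CPM in set 2 and 18.6, 20.4 and 18.2 CPM in puro. CENPI, of the CENP-H, I, K and M complex, had 75.6, 58.2 and 61.5 CPM in set 3, 64.6, 65.2 and 64.3 CPM in set 2 and 43.9, 45.1 and 47.3 CPM in puro. Both genes were higher in every shIGF2BP2 library than in any puro library, CENPC by 0.42 in set 3 and by 0.49 in set 2 and CENPI by 0.52 and 0.51 on the log2 scale (edgeR adjusted p at most 0.000248). CENPK, of the same complex, had 31.1, 25.2 and 22.4 CPM in set 3, 20.4, 20.1 and 21.5 CPM in set 2 and 14.1, 16.9 and 17.7 CPM in puro. The arms were fully separated, in the order set 3, set 2 and puro, at log2 fold changes of 0.69 and 0.35 against puro (edgeR adjusted p = 4.89e-06 and 0.0071). The other subunits of this complex went apart in set 3: CENPM rose by 0.50 and CENPH fell by 0.57 (edgeR adjusted p = 4.69e-05 and 4.14e-06), and neither was called in set 2 (0.029 and -0.19). CENPN, which reads CENP-A nucleosomes together with CENPL, had 90.4, 86.9 and 91.7 CPM in set 3, 93.0, 95.2 and 94.8 CPM in set 2 and 77.0, 81.8 and 82.4 CPM in puro. Its rises were small, 0.16 in set 3 and 0.23 in set 2 (edgeR adjusted p = 0.0427 and 0.00342), and CENPL rose by 0.50 in set 2 and was not called in set 3 at 0.023, a difference of -0.48 (edgeR adjusted p = 2.57e-06, 0.819 and 4.43e-06). CENPA itself fell by 0.25 in set 3 on the log2 scale and was not called in set 2 at 0.085 (edgeR adjusted p = 0.00652 and 0.348). The call of CENPN in set 3 was lost by edgeR when any library but set 3 replicate 1 was left out (adjusted p 0.0505 to 0.138), without the low-count filter (0.0707) and with the replicate block (0.0965), that of CENPA in set 3 without puro replicate 1 (0.057), and that of CENPK in set 2 without puro replicate 1 (0.0583) and between the sets without set 3 replicate 1 (0.0858).

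Factors that load CENP-A onto centromeres differed between the sets. HJURP, the chaperone that deposits CENP-A (chr2:233833416-233854566, minus strand), had 188, 172 and 167 CPM in set 3, 287, 306 and 307 CPM in set 2 and 180.3, 186 and 185 CPM in puro. Every set 2 library was above all others, by 0.71 (SE 0.064) on the log2 scale against puro, while set 3 and puro overlapped at -0.066, and set 3 minus set 2 was -0.77 (edgeR adjusted p = 2.84e-10, 0.4 and 4.85e-11). OIP5, which encodes MIS18 beta of the complex that licenses loading (chr15:41309268-41332621, minus strand), had 7.28, 6.21 and 7.81 CPM in set 3, 11.2, 11.9 and 12.1 CPM in set 2 and 15.7, 14.6 and 17.0 CPM in puro. The 3 arms did not overlap, and OIP5 fell by 1.15 (SE 0.11) in set 3 and by 0.43 (SE 0.11) in set 2, with set 3 the lower (edgeR adjusted p = 1.99e-09, 0.00142 and 4.48e-06). Its exons overlap the antisense OIP5-AS1 by 470 bases, and reads of the pair cannot be told apart without the strand setting. The same limit holds for other genes of the list that share exonic bases with a gene on the opposite strand. Among them are CENPP (3719 bases with IPPK), CENPT (596 with TSNAXIP1) and PLK1 (553 with AC008870.3). CENPN (457 with CMC2), ZWILCH (369 with LCTL) and CENPU (346 with PRIMPOL) are further cases. MIS18A, the partner of OIP5, was called in neither set, at 0.13 in set 3 and -0.10 in set 2; the difference between the sets, 0.23, was called (edgeR adjusted p = 0.0108) but not without set 3 replicate 2 (0.0518) or on log2(FPKM + 1) with limma (0.202).

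**Figure D2:**
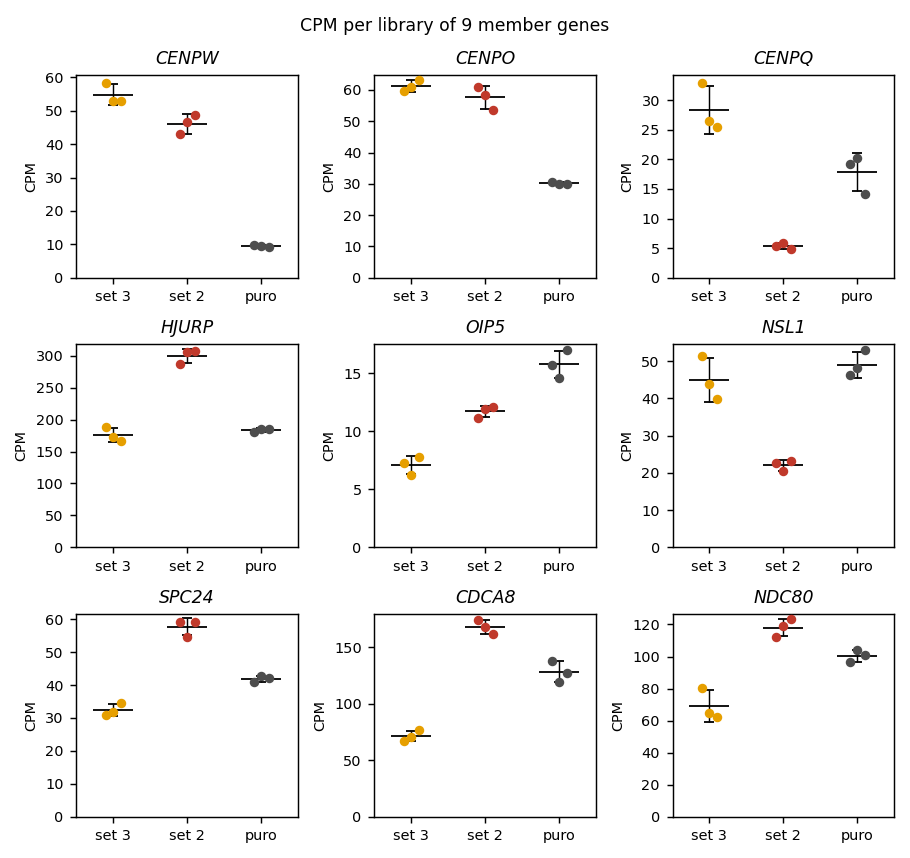
CPM (vertical axes, from 0) of 9 genes in set 3, set 2 and puro, with a point per library and black bars for the mean ± SD of 3 libraries. CENPW and CENPO are high in both sets, CENPQ, SPC24, CDCA8 and NDC80 lie on opposite sides of puro in the sets, HJURP is high in set 2 alone and OIP5 is lowest in set 3.

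In the NDC80 complex, the 4-subunit microtubule coupler of the outer kinetochore, the sets lay on opposite sides of puro for 2 subunits. NDC80 had 80.4, 64.9 and 62.4 CPM in set 3, 112, 119 and 123 CPM in set 2 and 96.8, 104 and 101 CPM in puro. SPC24, its anchoring subunit, had 31.0, 31.96 and 34.5 CPM in set 3, 59.1, 54.7 and 59.1 CPM in set 2 and 40.9, 42.8 and 42.1 CPM in puro. For both genes all set 3 libraries were under the puro libraries and all set 2 libraries above them. The log2 fold changes were -0.54 in set 3 and 0.23 in set 2 for NDC80 and -0.37 and 0.46 for SPC24, and set 3 minus set 2 was -0.77 and -0.83 (edgeR adjusted p = 3.51e-09 and 2.06e-10). NUF2, which pairs with NDC80, was higher in set 2 by 0.39 and not called in set 3 at -0.16 (edgeR adjusted p = 0.000215 and 0.121), a difference of -0.55 between the sets (adjusted p = 2.57e-06 by edgeR). SPC25, which pairs with SPC24, was called in neither set, at -0.14 and -0.044. The call of NDC80 in set 2 was lost without set 2 replicate 3 (edgeR adjusted p = 0.0631).

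The MIS12 complex is the hub that joins CENP-C and CENP-T to the NDC80 complex. In set 2 its subunit NSL1 (chr1:212726153-212791782, minus strand) showed the deepest fall of the outer kinetochore genes. NSL1 had 51.3, 43.8 and 39.8 CPM in set 3, 22.7, 20.4 and 23.1 CPM in set 2 and 46.2, 48.1 and 53.0 CPM in puro. The set 2 libraries were all well under the others, at a log2 fold change of -1.15 (SE 0.090), while set 3 overlapped puro at -0.13 and was 1.03 above set 2 (edgeR adjusted p = 1.7e-11, 0.219 and 1.61e-10). On log2(FPKM + 1) the set 2 change of this low-level gene came to -0.75. PMF1, another subunit, had 18.4, 19.7 and 17.2 CPM in set 3, 11.4, 12.1 and 10.3 CPM in set 2 and 18.6, 12.7 and 13.2 CPM in puro. Puro replicate 1 stood apart from the other puro libraries and inside the set 3 range, and the log2 fold changes were 0.31 in set 3 and -0.40 in set 2 (edgeR adjusted p = 0.0304 and 0.00693). The set 2 call was lost without puro replicate 1 (edgeR adjusted p = 0.147), and the set 3 call without puro replicate 2 (0.18), puro replicate 3 (0.152) or set 3 replicate 2 (0.118), whereas without puro replicate 1 the set 3 change was 0.51. On log2(FPKM + 1) with limma neither PMF1 call held (adjusted p = 0.0523 in set 3 and 0.0685 in set 2). PMF1 also shares 587 exonic bases with the read-through gene PMF1-BGLAP. DSN1, the subunit that Aurora B phosphorylates, fell by 0.44 in set 3 and was not called in set 2 at 0.030 (edgeR adjusted p = 1.39e-05 and 0.741), and MIS12 was called in neither, at 0.068 and -0.019.

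KNL1 and its partner ZWINT moved in opposite directions, each the same way in both sets. KNL1, the scaffold on which the BUB proteins assemble, had 86.7, 70.7 and 67.0 CPM in set 3, 70.6, 66.4 and 76.9 CPM in set 2 and 51.5, 62.7 and 62.5 CPM in puro. ZWINT had 179, 159 and 152 CPM in set 3, 152, 156 and 159 CPM in set 2 and 203, 200.3 and 209.8 CPM in puro. Every shIGF2BP2 library was above the puro libraries for KNL1 and under them for ZWINT. The log2 fold changes of KNL1 were 0.34 in set 3 and 0.28 in set 2 and those of ZWINT -0.32 and -0.39 (edgeR adjusted p = 0.00198, 0.0102, 0.000173 and 1.18e-05). The KNL1 call in set 2 was lost without puro replicate 1 (edgeR adjusted p = 0.0875) or set 2 replicate 3 (0.0671), and its set 3 change was 0.23 without set 3 replicate 1.

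None of the 5 corona and RZZ genes fell in either set, and 2 rose in each. Of all tested genes, 28.0% rose and 27.6% fell in set 3, and 30.0% rose and 29.9% fell in set 2. Counts of so few genes carry no test of the group. The fibrous corona and the RZZ complex (ROD, ZW10 and ZWILCH) form on unattached kinetochores and capture microtubules and dynein. CENPE, a kinesin that moves chromosomes to the spindle equator, had 141, 108 and 94.9 CPM in set 3, 121, 121 and 129.9 CPM in set 2 and 82.3, 96.9 and 74.6 CPM in puro. Its set 2 libraries were above all puro libraries while 1 set 3 library lay inside the puro range, with log2 fold changes against puro of 0.43 in set 3 and 0.55 in set 2 (edgeR adjusted p = 0.000677 and 3.62e-05). Without set 3 replicate 1 the set 3 change of CENPE was 0.26. ZWILCH had 118, 98.6 and 91.5 CPM in set 3, 71.8, 75.8 and 81.2 CPM in set 2 and 63.2, 70.7 and 72.1 CPM in puro. It was higher in every set 3 library, by 0.58 against puro, and overlapped puro in set 2 at 0.15 (edgeR adjusted p = 1.2e-06 and 0.12). CENPF, a farnesylated corona protein and proliferation marker, showed the reverse, with 376, 303 and 274 CPM in set 3, 452, 434 and 470.2 CPM in set 2 and 293, 361 and 292 CPM in puro. Its set 2 libraries were above all puro libraries, by 0.52, and set 3 overlapped puro at 0.010 (edgeR adjusted p = 1.4e-05 and 0.933). Set 3 minus set 2 was 0.43 for ZWILCH and -0.51 for CENPF (edgeR adjusted p = 6.22e-05 and 1.73e-05). ZW10 and KNTC1, which encodes ROD, were called in neither set and had log2 fold changes from -0.15 to 0.13.

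The checkpoint genes split: BUB1B and MAD2L1 fell in both sets, and TTK and CDC20 rose in both. BUB1B, which encodes the inhibitor BUBR1, had 142, 122 and 128 CPM in set 3, 122, 128 and 135 CPM in set 2 and 172, 175 and 170.0 CPM in puro. MAD2L1, which encodes MAD2, had 125, 105 and 90.4 CPM in set 3, 116, 127 and 138 CPM in set 2 and 153, 166 and 164 CPM in puro. Both inhibitors were lower in every shIGF2BP2 library than in any puro library, with log2 fold changes of -0.40 (set 3) and -0.43 (set 2) for BUB1B and -0.59 and -0.34 for MAD2L1 (edgeR adjusted p at most 0.00125). TTK, the kinase MPS1 that starts the signal, had 91.9, 69.4 and 65.4 CPM in set 3, 80.7, 83.6 and 95.2 CPM in set 2 and 62.1, 62.0 and 65.4 CPM in puro. CDC20, the activator that the inhibitors bind, had 318, 356 and 362 CPM in set 3, 319.9, 322 and 314 CPM in set 2 and 286, 242 and 259.5 CPM in puro. Both were higher in all shIGF2BP2 libraries, although for TTK the lowest set 3 library barely passed the highest puro library; the log2 fold changes were 0.26 in set 3 and 0.45 in set 2 for TTK and 0.40 and 0.28 for CDC20 (edgeR adjusted p at most 0.0212). BUB1, the kinase that recruits BUBR1 and marks the inner centromere, had 222, 189 and 175 CPM in set 3, 153, 166 and 171 CPM in set 2 and 149, 146 and 148 CPM in puro. It rose in set 3 by 0.40, and set 2 at 0.15 was not called (edgeR adjusted p = 4.07e-05 and 0.0851). The sets differed by 0.26 (edgeR adjusted p = 0.00401), which came to 0.15 without set 3 replicate 1 and was not called on log2(FPKM + 1) with limma (0.161). BUB3, their shared partner, was called in neither set against puro, at -0.11 and 0.11. MAD1L1, the anchor of MAD2, could not be tested: its counts were 0, 0 and 1 in set 3, 0, 0 and 0 in set 2 and 0, 1 and 2 in puro, and whether that reflects the RNA or the counting was not tested. The TTK call in set 3 was lost without set 3 replicate 1 (edgeR adjusted p = 0.285, log2 fold change 0.094) or puro replicate 2 (0.0602), and on log2(FPKM + 1) with limma (0.0983). BUB1B shares 457 exonic bases with the read-through gene BUB1B-PAK6.

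Of the 4 chromosomal passenger genes, all fell in set 3, where 27.6% of all genes did. In set 2, where 29.9% of all genes fell and 30.0% rose, 2 fell and CDCA8 rose. CDCA8, which encodes the targeting subunit borealin (chr1:37692418-37709719, plus strand), had 67.2, 70.9 and 76.4 CPM in set 3, 174, 168 and 162 CPM in set 2 and 138, 119.6 and 127 CPM in puro. Its set 3 libraries were all under the puro libraries and its set 2 libraries all above them, with log2 fold changes of -0.84 (SE 0.071) and 0.39 (SE 0.069) and a difference of -1.23 between the sets (edgeR adjusted p = 8.18e-11, 2.44e-05 and 3.3e-14). BIRC5, which encodes survivin, had 223, 232 and 237 CPM in set 3, 198, 206 and 200.2 CPM in set 2 and 271, 261 and 250.2 CPM in puro. AURKB, the kinase of the complex, had 85.1, 104 and 105 CPM in set 3, 104, 106 and 94.6 CPM in set 2 and 127, 109 and 111 CPM in puro. Both were under puro in every shIGF2BP2 library, with log2 fold changes of -0.18 (set 3) and -0.37 (set 2) for BIRC5 and -0.24 and -0.19 for AURKB (edgeR adjusted p at most 0.0432). INCENP, the scaffold, fell by 0.42 in set 3 and stood at 0.0019 in set 2, not called (edgeR adjusted p = 2.63e-05 and 0.983). The AURKB calls did not hold throughout: in set 3 AURKB was not called without puro replicate 1 (edgeR adjusted p = 0.0946) or set 3 replicate 1 (0.0733), and in set 2 without puro replicate 1 (0.233), set 2 replicate 1 (0.0582) or set 2 replicate 3 (0.195), with upper-quartile scaling (0.108) and on log2(FPKM + 1) with limma (0.403) and with the replicate block (0.0754). BIRC5 in set 3 was lost without puro replicate 1 (edgeR adjusted p = 0.0688) and with the replicate block (0.0507).

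The mitotic cyclins moved against each other, the same way in both sets. CCNB1, the main partner of CDK1 in mitosis, had 207, 183 and 176 CPM in set 3, 191, 205 and 220.2 CPM in set 2 and 159, 166 and 168 CPM in puro. CCNB2 had 79.6, 78.2 and 79.9 CPM in set 3, 77.2, 78.9 and 76.5 CPM in set 2 and 100.2, 96.6 and 94.7 CPM in puro. Every shIGF2BP2 library was above the puro libraries for CCNB1 and under them for CCNB2, at log2 fold changes against puro of 0.20 in set 3 and 0.32 in set 2 for CCNB1 and -0.29 and -0.33 for CCNB2 (edgeR adjusted p at most 0.0182). CDK1, the kinase they activate, had 200.5, 164 and 165 CPM in set 3, 158, 172 and 185 CPM in set 2 and 210.4, 219 and 206 CPM in puro. AURKA, the spindle pole kinase, had 184, 177 and 164 CPM in set 3, 164, 172 and 184 CPM in set 2 and 135, 133 and 144 CPM in puro. CDK1 was under puro in all shIGF2BP2 libraries, at -0.26 (set 3) and -0.30 (set 2) on the log2 scale, and AURKA above puro in all, at 0.35 and 0.34 (edgeR adjusted p at most 0.0042). PLK1, which phosphorylates many kinetochore proteins, was called in neither set at -0.019 and 0.074, and none of these 5 genes differed between the sets by edgeR (log2 differences -0.13 to 0.043; adjusted p at least 0.122). The CCNB1 call in set 3 was lost without puro replicate 1 (edgeR adjusted p = 0.0591) or set 3 replicate 1 (0.0898).

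None of the 3 remaining kinesin genes rose against puro, where 28.0% of all tested genes rose in set 3 and 30.0% in set 2. KIF2C, the microtubule depolymerase MCAK of the inner centromere, had 234, 209.6 and 204 CPM in set 3, 151, 167 and 166 CPM in set 2 and 192, 193 and 197 CPM in puro. It fell by 0.27 in set 2; in set 3 all libraries lay above the puro libraries, but the change of 0.15 missed the threshold (edgeR adjusted p = 0.001 and 0.0518). On log2(FPKM + 1) the set 2 change of KIF2C was -0.17. KIF18A, which damps chromosome oscillations, had 66.2, 50.1 and 46.7 CPM in set 3, 39.7, 42.8 and 45.3 CPM in set 2 and 51.03, 55.4 and 51.9 CPM in puro. It fell by 0.31 in set 2 and was not called in set 3 at 0.041 (edgeR adjusted p = 0.00656 and 0.738), and the set 2 call was lost on log2(FPKM + 1) with limma (0.0997). KIF11, the motor Eg5 that separates spindle poles, had 129, 134 and 128 CPM in set 3, 153, 142 and 143 CPM in set 2 and 151, 171 and 153 CPM in puro. It was under puro in every set 3 library, with a log2 fold change of -0.28, and overlapped puro in set 2 at -0.12 (edgeR adjusted p = 0.000743 and 0.118).

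**Figure D3:**
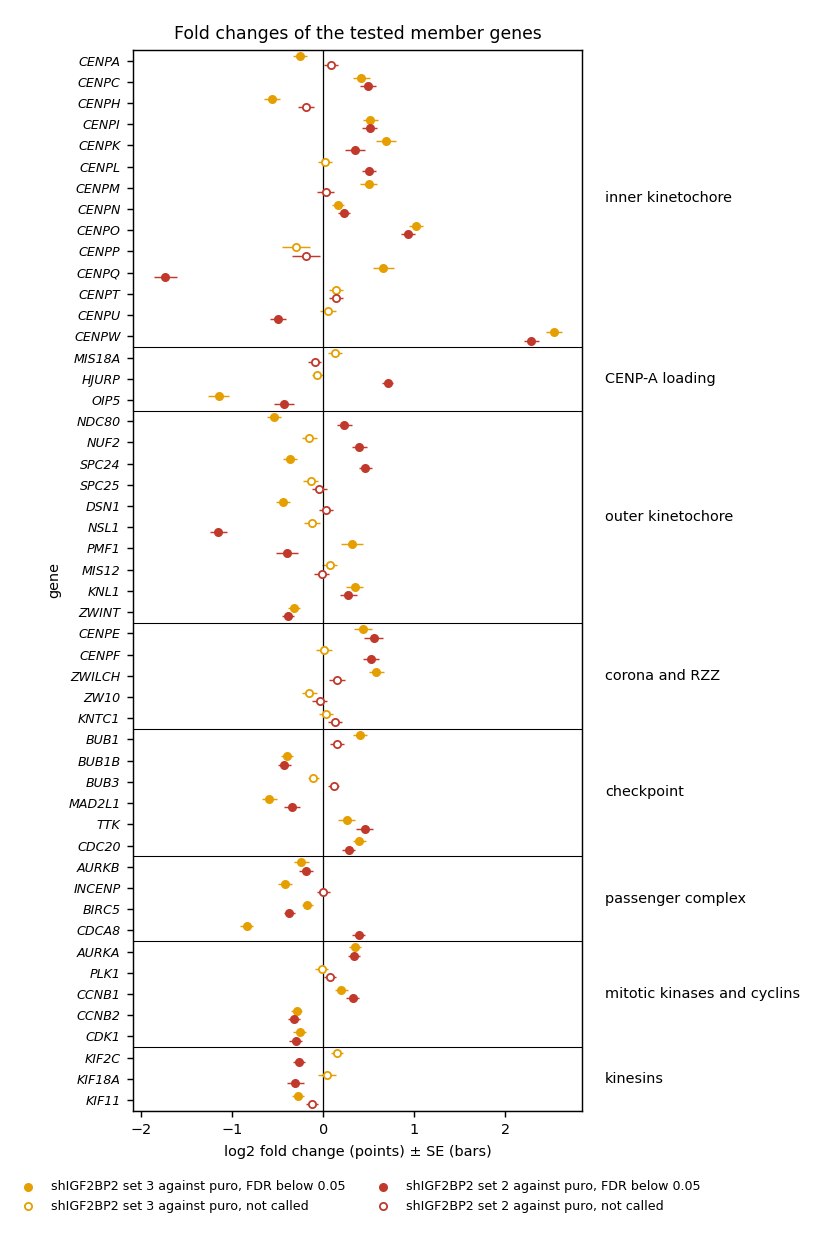
Log2 fold change ± SE (horizontal axis) of the 50 tested genes (vertical axis, grouped by role) in set 3 against puro and set 2 against puro; filled points passed an adjusted p of 0.05 and open points did not. CENPW lies beyond 2 in both sets, CENPQ lies at 0.66 in set 3 and -1.74 in set 2, and most others lie nearer to 0.

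The set 3 and set 2 libraries of the same last number were also summed, so that each labelled sample entered once. That such libraries come from the same sample was not tested. Their deviations from the arm means correlated at -0.0942, 0.00408 and -0.0723, and 60.7% of all genes were called between the sets. Summing averages the sets, and its p-values reflect only the spread among the sums and among the puro libraries. In this fit 18 genes rose and 14 fell among 50 tested, 64%. Of 13518 genes, 58.0% were called (28.8% higher and 29.2% lower). CENPW was again the largest, at 2.41 (SE 0.070, edgeR adjusted p = 9.67e-16), followed by CENPO at 0.97 and the falls of OIP5 (-0.75) and NSL1 (-0.57). CENPQ, NDC80, SPC24, PMF1 and CDCA8, called in opposite directions in the sets, were not called in the sums, with log2 fold changes from -0.12 to 0.10. The calls of CENPM and CENPU were lost when 1 sample was left out, CENPM without shIGF2BP2 replicate 2 (edgeR adjusted p = 0.0518) or puro replicate 2 (0.0554) and CENPU without shIGF2BP2 replicate 3 (0.0601). If the first number is read as the sample instead, with 2 shIGF2BP2 samples, the edgeR test called 3 of the genes, all higher: CENPW (2.42, adjusted p = 0.00167), CENPO (0.99, 0.00633) and CENPI (0.52, 0.0353).

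Per gene length the levels of these genes in puro spanned more than 2 orders of magnitude. CDC20 was the highest at 143 ± 11.6 FPKM (SD, n = 3 libraries), followed by CDK1 at 103 ± 3.97 FPKM and ZWINT at 97.5 FPKM, and CENPP and CENPC at 2.75 FPKM were the lowest of the tested genes. CENPW changed its place in this order: its 61.9 FPKM in set 3 and 56.8 FPKM in set 2 were above every other inner kinetochore gene, where in puro CENPA, CENPH, CENPM, CENPU, CENPT and CENPN stood above it. Between libraries of an arm the median coefficient of variation of CPM was 8.73% in set 3, 5.20% in set 2 and 4.67% in puro.

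**Figure D4:**
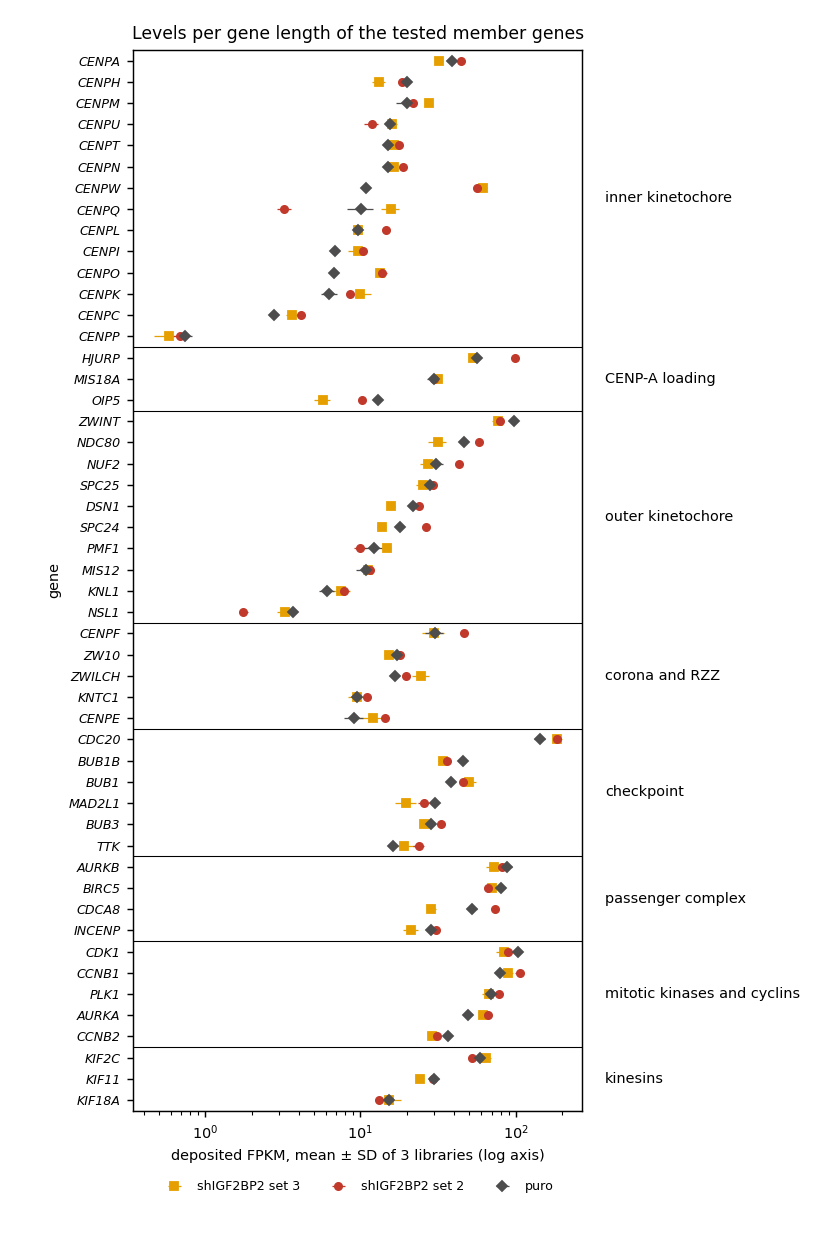
Deposited FPKM (horizontal log axis, mean ± SD of 3 libraries) of the 50 tested genes (vertical axis, by role and by level in puro) in set 3, set 2 and puro. CENPW lies at 61.9 FPKM in set 3 and 56.8 FPKM in set 2 against 10.8 FPKM in puro, and CDC20 is the highest gene in every arm.

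Other genes of the pathway, outside the 51, were counted by list. Of 21 further kinetochore and centromere genes, 9 rose and 3 fell in set 3, and 5 rose and 2 fell in set 2. CENPB, which binds centromeric repeats, rose by 0.32 in set 3 and by 0.53 in set 2, and CENPX, a histone-fold partner in the CENP-T network, by 0.59 and 0.26. SKA1, of the microtubule-tracking SKA complex, rose in set 2 (0.76) and was not called in set 3 (0.075), SKA2 fell in set 3 (-0.61) and was not called in set 2 (0.041), and CLASP2 was higher in set 3 and lower in set 2 (0.97 and -0.46). Of 21 genes of the anaphase-promoting complex and its regulators, the target of the checkpoint, 7 rose and 4 fell in set 3 and 6 rose and 7 fell in set 2; ANAPC1, its largest subunit, fell in set 2 (-0.99, against 0.088 in set 3, not called), and CDC26 was higher in set 3 and lower in set 2 (0.81 and -0.52). In set 3 and set 2, ANAPC13 rose (0.74 and 0.57) and FBXO5 fell (-0.63 and -0.26). Of 27 tested spindle and cytokinesis genes, 6 rose and 5 fell in set 3 and 10 rose and 3 fell in set 2. RACGAP1, of the centralspindlin complex, was the largest rise (0.84 and 1.37). KIF4A fell in both sets (-0.20 and -0.82), and HMMR fell in set 2 (-0.83) and was not called in set 3 (-0.18). Each value called here passed an edgeR adjusted p of 0.05 over all genes, where 55.6% of genes did in set 3 and 59.9% in set 2. By direction, 28.0% of all genes rose and 27.6% fell in set 3, and 30.0% rose and 29.9% fell in set 2.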

How the data were processed

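Polyadenylated RNA of 786-O cells was extracted with RNAiso Plus, and libraries were TruSeq, per the labels' protocols. The authors trimmed reads with fastp 0.23.2, aligned them to hg38 with STAR 2.7.10a and counted them with featureCounts, and DESeq2 is also named, per the submitters' processing notes. Neither annotation, strand setting nor multimapping treatment is stated in those sources. The deposited table of whole-number read counts was used for all tests. The authors also deposited FPKM values, which are the same counts rescaled: 16722 of 16722 genes gave the same ratio within 1e-06 in every library.

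Counts were normalised by TMM and tested with edgeR 4.0.16 in R 4.3.3 (filterByExpr, quasi-likelihood test, Benjamini-Hochberg adjustment over all tested genes, FDR 0.05), in 1 fit over the 9 libraries and, with the set 3 and set 2 counts of a sample summed, in 1 fit over 6 samples. CPM values use the TMM library sizes. Genes with per-library values were, in each role, the member with the largest called change in each comparison and every gene called in both sets; CENPT, the partner of CENPW, was added after its values were seen. The members, roles and lists were chosen with earlier results of these data known. Alternatives were DESeq2 1.42.0, limma 3.58.1 on counts (voom) and on log2(FPKM + 1) and log2(FPKM + 0.1), other scaling factors, filters and thresholds, a replicate block and leaving out each library. The fits were also run on simulated data. Few genes were changed there, while most genes were called here, so that run cannot decide whether the scaling holds for these data. Same-numbered libraries did not deviate together (correlations of deviations from the arm means -0.103 to 0.0387), so the numbers were not used as pairs. The sums still rest on reading the last number as the sample. Log2 CPM correlated at 0.990 to 0.993 within an arm and 0.963 to 0.970 between arms. Positions and 3' UTRs are from GENCODE 29 (GRCh38), promoters from RefSeq (GRCh38.p14).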

Additional observations from a re-analysis of the deposited data

Results flagged for a closer look

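The effect of the shIGF2BP2 libraries against puro ran in opposite directions in the sets for 5 kinetochore genes, and edgeR's test of the difference itself was passed by each. They are 10% of the 50 tested, near the 9.02% of all tested genes called in opposite directions. Set 3 minus set 2 on the log2 scale was 2.40 for CENPQ (adjusted p = 9.82e-15), made up of 0.66 for set 3 and -1.74 for set 2 against puro. The difference was -1.23 for CDCA8 (adjusted p = 3.3e-14), made up of -0.84 for set 3 and 0.39 for set 2. It was -0.83 for SPC24 (adjusted p = 2.06e-10) and -0.77 for NDC80 (adjusted p = 3.51e-09), which belong to the same complex. PMF1 differed by 0.71 (adjusted p = 1.39e-05), with a puro library that stood apart.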

How the results depend on the processing

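No called change of a kinetochore gene reversed under any alternative. With FDR 0.05 alone as the threshold, 26 of the 33 calls in set 3, 27 of the 33 in set 2 and 20 of the 28 between the sets held in each of 19 settings. In the summed comparison 30 of the 32 calls held in each of 15 settings, leaving aside the reading of the first number as the sample. Requiring also a 1.5-fold change left 4 higher and 3 lower genes in set 3, 3 and 2 in set 2, 3 and 5 between the sets and 2 and 1 in the sums; over all genes it left 1376 higher and 1680 lower in set 3, 1800 and 1615 in set 2, 1618 and 1949 between the sets and 1354 and 1231 in the sums. With the first number read as the sample, 3 genes of the list were higher and 0 lower (all genes 715 and 570). On log2(FPKM + 1) and on log2(FPKM + 0.1), the direct comparison of the sets gave 7 higher and 22 lower genes, against 13 and 15 by edgeR. Set 2 against puro gave 26 and 11 there, against 19 and 14. Over all genes log2(FPKM + 1) gave 2917 higher and 5153 lower between the sets and 4882 and 3138 in set 2, against 3983 and 4114 and 3998 and 3991 by edgeR. The median log2 change of all genes between the sets was -0.14 on log2(FPKM + 0.1) and -0.084 on log2(FPKM + 1), against -0.022 by edgeR. The replicate block gave 16 higher and 15 lower genes in set 3, 19 and 13 in set 2, 13 and 14 between the sets and 18 and 14 in the sums. Leaving out 1 library moved no count by over 1.5 times. The limma fits on FPKM used no TMM factors. Those factors were 0.958 to 0.977 in set 3, 1.045 to 1.057 in set 2 and 0.979 to 0.990 in puro. Apart from the added fold threshold, which removes calls by its own rule, the cause of the differences between settings was not tested. That includes the reading of the first number as the sample, which changes both the number of samples and the spread among them. MAD1L1 had too few counts to be tested.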

Other observations

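Genes that act beside the kinetochore in the cell cycle were counted by list; of all tested genes 28.0% rose and 27.6% fell in set 3, and 30.0% rose and 29.9% fell in set 2. Of 10 condensin and chromosome structure genes, none rose and 7 fell in set 3, and 3 rose and 5 fell in set 2. NCAPG2, a condensin II subunit, fell in both sets (log2 fold changes -0.90 in set 3 and -0.45 in set 2), NCAPD3 likewise (-0.35 and -1.22), and TOP2A, the decatenating topoisomerase, fell in set 3 (-0.93) and was not called in set 2 (-0.014). Of 20 genes of mitotic entry and of the MuvB and FOXM1 programme that drives G2/M transcription, 2 rose and 11 fell in set 3, and 4 rose and 4 fell in set 2, the set 2 shares lying under those of all genes. LIN9 and LIN54, which are subunits of MuvB, fell in set 3 (-1.04 and -0.62) and were not called in set 2 (0.12 and 0.021). The MuvB subunits LIN37, LIN52 and RBBP4 were not called in set 3 (0.14, -0.072 and -0.082). In set 2 RBBP4 fell (-0.58), and LIN37 and LIN52 were not called (0.085 and -0.13). CDC25A, a phosphatase that activates cyclin-dependent kinases, fell in set 2 (-1.03) and was not called in set 3 (-0.050).

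Of 16 S phase genes, 3 rose and 7 fell in set 3, and 3 rose and 12 fell in set 2; between the sets 13 were higher in set 3 and 1 lower, where 29.8% of all genes were higher and 30.8% lower. MCM3 and MCM6, of the replicative helicase, fell by 0.30 and 0.33 in set 3 and by 1.00 and 1.16 in set 2, while GINS2 and TYMS rose by 1.08 and 0.86 in set 3 and by 0.55 and 0.33 in set 2. All calls are by edgeR's quasi-likelihood test at an adjusted p of 0.05 over all genes.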
